A study of Mus musculus with 8 samples.

Results

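The elastic fiber genes described here encode elastin and the proteins that build the microfibrils around it: Eln, Fbn1, Fbn2, Mfap2, Mfap5, Mfap4, Fbln1, Fbln2, Fbln5 and Emilin1. They were taken by gene symbol from a table of 35896 mouse genes. All 10 were found, and all 10 were among the 17182 genes that passed the filter on low counts. Elastic fibers give the wall of the aorta its recoil. They consist of a core of cross-linked elastin laid down on microfibrils of fibrillin, and fibulins, emilins and microfibril-associated proteins link both parts to each other and to cells. Smooth muscle cells of the media and fibroblasts of the adventitia make most of these proteins, and elastin is made mainly during development and early growth.

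RNA of aortic tissue from male C57BL6 mice was sequenced in 8 libraries, 2 to each of 4 groups, and every library pooled the tissue of 2 mice. The AngII group received angiotensin II, the peptide hormone that raises blood pressure through its receptor on vessel cells, from a subcutaneous minipump at 2.8 mg/kg/day for 2 weeks from the age of 11 weeks, and was studied at the end of the infusion. The AngII+2W and AngII+3W groups had the same infusion and were studied 2 and 3 weeks after it stopped, and CTRL mice were untreated littermates of matched age. The groups address whether changes made by angiotensin II remain after it is withdrawn. The labels name no transgene or mutation in any group. Part of each aorta was used, the labels do not tell at which of the time points the CTRL mice of these libraries were killed, and p-values measure the spread between pools of mice.

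Counts summed to 18130441 to 21498200 per library. One library stood apart: in AngII+3W replicate 1, 6 skeletal muscle genes summed to 1382 CPM (counts scaled to a common library total), against 5.05 to 74.0 CPM in the other 7 libraries, and 18.3% of its counts came from mitochondrial genes, against 8.15 to 13.5%. In the same library 6 cardiac muscle genes summed to 5261 CPM, against 320 CPM in AngII+3W replicate 2 and 2022 to 4582 CPM in CTRL. The cardiac sum was 760 to 1215 CPM in AngII and 6.34 to 147.5 CPM in AngII+2W, so it also differed between groups. Whether it bears on the comparisons with CTRL was not tested. All 10 elastic fiber genes were lower in AngII+3W replicate 1 than in replicate 2, by a median of 1.17 on the log2 scale, whereas the median of all genes tested differed by less than 0.01 between both libraries. Most comparisons that involve AngII+3W are therefore given with and without this library. The replicates of the other groups also differed: all 10 genes were higher in replicate 2 of AngII (median difference 0.56), all 10 were lower in replicate 2 of AngII+2W (median -0.50), and 8 of 10 were lower in replicate 2 of CTRL (median -0.27). In whole tissue, fewer cells of a type and less RNA per cell cannot be told apart.

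After 2 weeks of angiotensin II, 2 of the 10 elastic fiber genes were higher than in CTRL: Fbn2, which encodes the fibrillin of developing microfibrils, rose 16.1-fold, and Mfap2, which encodes a small glycoprotein bound to fibrillin (MAGP-1), rose 5.09-fold. Over all genes tested, 2.9% were called higher and 2.2% lower in this comparison, where a call is an adjusted p under 0.05 in the quasi-likelihood test of edgeR, Benjamini-Hochberg adjusted over all of them. No elastic fiber gene was called lower. Without CTRL replicate 1 or without AngII replicate 2 neither gene passed, and few or none of all genes tested did. The log2 differences stayed at 4.08 and 3.79 for Fbn2 and at 2.20 and 2.04 for Mfap2. Without CTRL replicate 2 only Fbn2 passed, with Mfap2 at 2.50 (edgeR adjusted p = 0.0816). The log2 fold change was above 0 for 8 of the 10, with a median of 0.71 against -0.01 over all genes tested. In 6 of the 10, both AngII libraries lay above both CTRL libraries, which held for 24.4% of all genes tested.

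**Figure D1:**
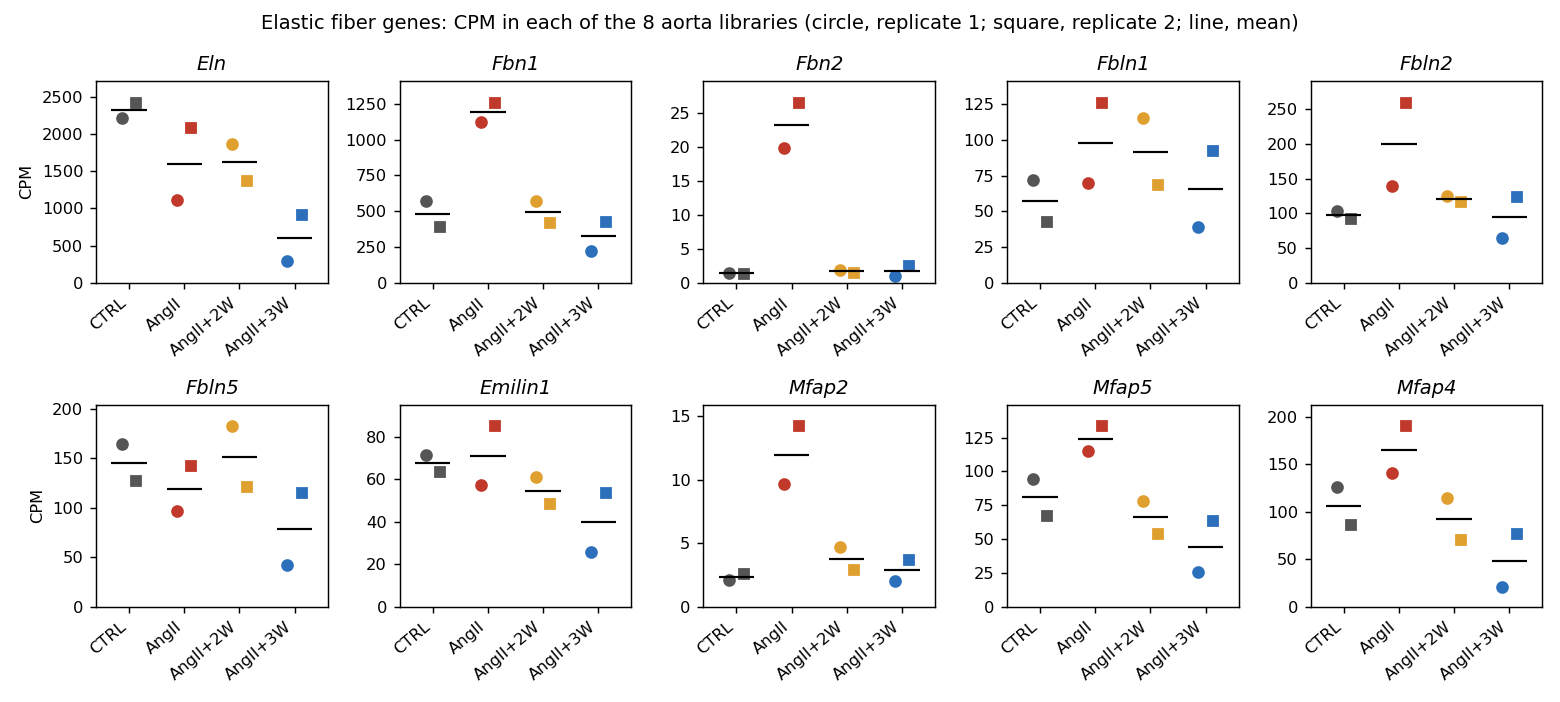
Level of each elastic fiber gene (CPM, linear axes that start at 0 and differ between genes) in the 8 aorta libraries. Circles are replicate 1, squares replicate 2 and lines the mean of each group. Fbn2 and Mfap2 are highest in both AngII libraries, Eln is lowest in AngII+3W, and AngII+3W replicate 1 lies under replicate 2 in every panel.

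Elastin, the core protein, was the most abundant member. Its gene, Eln (ENSMUSG00000029675, GRCm38 chromosome 5, 134702593 to 134747323, minus strand), measured 2218 and 2418 CPM in CTRL and 1117 and 2073 CPM in AngII. It measured 1870 and 1367 CPM in AngII+2W and 289.0 and 907.7 CPM in AngII+3W. Each library of the 3 infused groups was under both CTRL libraries, and the 2 libraries of AngII differed widely. The difference from CTRL was -0.54 (SE 0.51) on the log2 scale in AngII (edgeR adjusted p = 0.624), -0.52 (SE 0.51) in AngII+2W (edgeR adjusted p = 0.784) and -1.95 (SE 0.53) in AngII+3W (unadjusted p = 0.0063, edgeR adjusted p = 0.182). None of these passed the threshold. The mean of Eln in AngII+3W was 25.8% of that in CTRL. Without AngII+3W replicate 1 the difference was -1.36 (SE 0.39, edgeR adjusted p = 0.240).

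Per length of its main transcript, Eln ranked first of the 10 genes in all 4 groups, at 602 ± 36.6 CPM per kb in CTRL, 414 ± 175 under AngII, 420 ± 92.3 at AngII+2W and 155 ± 114 in AngII+3W (mean ± SD, n = 2). In CTRL it was followed by Mfap4 at 61.6 ± 16.6, Mfap5 at 53.7 ± 12.9 and Fbn1 at 40.1 ± 10.8 CPM per kb, an order that held within both CTRL libraries. Neighbors in it overlapped between libraries, whereas Mfap4 was above Fbn1 in each. Fbn2 was the lowest of the 10 in every group and Mfap2 the next lowest. These positions of Eln, Mfap2 and Fbn2 were the same when the length of all exons together was used, whereas the order of Fbn1, Mfap4 and Mfap5 among themselves depended on it.

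The fibrillins form the microfibrils. Fbn1 (ENSMUSG00000027204, GRCm38 chromosome 2, 125300594 to 125507993, minus strand) encodes the main fibrillin of adult tissue and is the gene mutated in Marfan syndrome. It measured 571.6 and 389.5 CPM in CTRL, 1126 and 1259 CPM under AngII, 571.3 and 416.0 CPM in AngII+2W and 223.0 and 426.7 CPM in AngII+3W. Both AngII libraries lay far above the other 6. The AngII mean was 2.48-fold that of CTRL, with a log2 difference of 1.31 (SE 0.34) that missed the threshold (unadjusted p = 0.0048, edgeR adjusted p = 0.0697). It passed in 4 of 10 other fits with no library left out, DESeq2 among them. With 1 library left out it passed only where that library was of AngII+3W, and the difference stayed between 1.05 and 1.61.

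Fbn2 (ENSMUSG00000024598, GRCm38 chromosome 18, 58008623 to 58210487, minus strand) measured 1.51 and 1.36 CPM in CTRL, from 31 and 29 counts. In AngII it measured 19.9 and 26.5 CPM, from 369 and 560 counts. In AngII+2W it was at 1.96 and 1.45 CPM and in AngII+3W at 1.08 and 2.42 CPM, which overlaps CTRL in both groups. Both AngII libraries lay far above the other 6, none of which reached 3 CPM. The log2 difference between AngII and CTRL was 4.01 (SE 0.37, edgeR adjusted p = 0.0053), and Fbn2 ranked 16th of 17182 genes by p. Between AngII+2W or AngII+3W and CTRL it was 0.25 (SE 0.39, edgeR adjusted p = 0.883) and 0.28 (SE 0.39, edgeR adjusted p = 0.814). Without AngII+3W replicate 1 the latter difference was 0.75. For every 100 units of Fbn1 per length, Fbn2 amounted to 0.286 and 0.380 in CTRL, 1.92 and 2.29 under AngII, 0.372 and 0.378 at AngII+2W and 0.523 and 0.614 in AngII+3W. Fbn1 therefore remained the predominant fibrillin in every library, and the AngII libraries had the highest share of Fbn2.

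**Figure D2:**
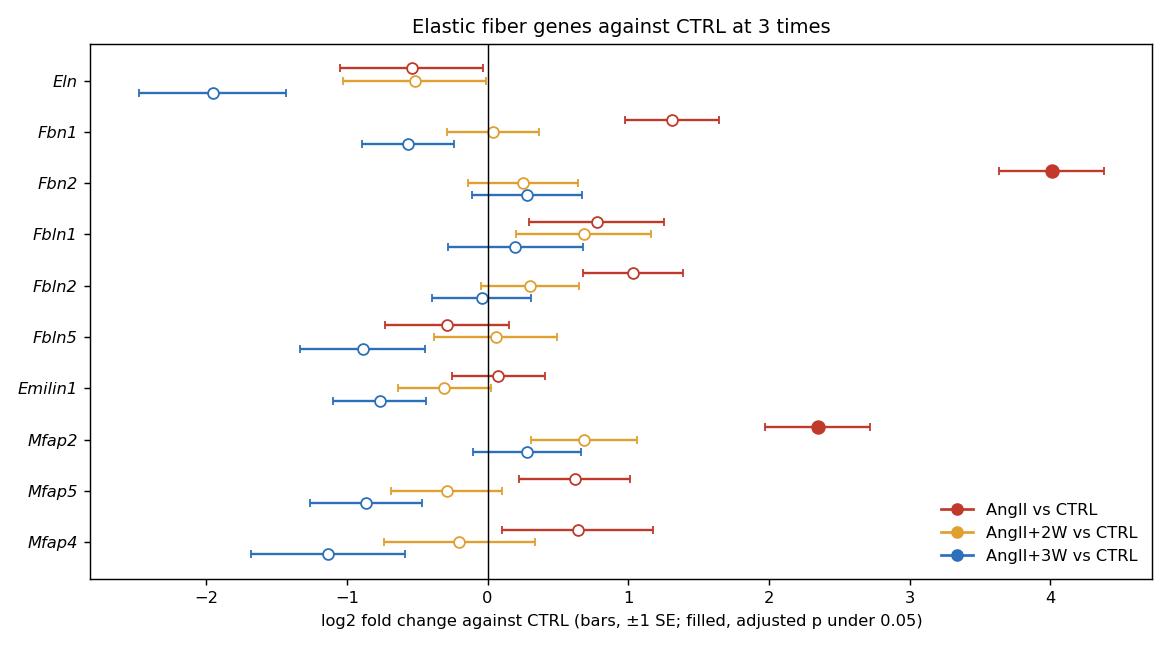
Log2 fold change of the 10 elastic fiber genes (rows) against CTRL in AngII (red), AngII+2W (orange) and AngII+3W (blue), with bars of 1 standard error. Filled points have an edgeR adjusted p under 0.05: only Fbn2 and Mfap2 in AngII. The 3 comparisons share the same CTRL libraries.

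The microfibril-associated glycoproteins bind fibrillin. Mfap2 (ENSMUSG00000060572, GRCm38 chromosome 4, 141010418 to 141015984, plus strand) measured 2.10 and 2.59 CPM in CTRL, from 43 and 55 counts. It measured 9.66 and 14.2 CPM under AngII, 4.67 and 2.85 CPM in AngII+2W and 2.04 and 3.65 CPM in AngII+3W. Both AngII libraries were above all others, and those of AngII+2W were above CTRL while those of AngII+3W overlapped CTRL. The log2 difference in AngII was 2.35 (SE 0.37, edgeR adjusted p = 0.0180). In AngII+2W it was 0.68 (SE 0.38, edgeR adjusted p = 0.577), which did not pass.

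The 250 bases before the RefSeq start of Mfap2 (GRCm38.p6, plus strand, chr4:141010174-141010423) are shown because Mfap2 is a called gene and these letters allow its upstream region to be inspected. Capitals mark the matches of 2 of 6 short motifs that were searched on both strands.
Mfap2 upstream: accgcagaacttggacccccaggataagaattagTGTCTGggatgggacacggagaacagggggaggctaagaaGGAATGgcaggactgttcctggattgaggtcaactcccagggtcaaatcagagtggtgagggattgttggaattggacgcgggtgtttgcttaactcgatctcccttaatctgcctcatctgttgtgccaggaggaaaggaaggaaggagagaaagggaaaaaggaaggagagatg
The first match is to the SMAD motif (CAGACA, here on the opposite strand), 216 bases before the start, and the other to the M-CAT motif (CATTCC, also on the opposite strand), 176 bases before it. Of 32817 such windows before mouse genes, 17.1% hold the SMAD letters and 12.6% the M-CAT letters. The TATA box (TATAAA, in 12.4% of windows), the GC box (GGGCGG, in 32.7%), the AP-1 motif (TGANTCA, in 6.75%) and the CArG box (in 1.47%) had no match in this window, which says only that these letters are not in it. GC content was 51.2%, against a median of 52.4% over all windows. A match is a description of letters and was not tested for binding. Windows before 6 of the 10 genes were in the table of RefSeq promoters used, and a further start of Mfap2 lies downstream of this one. The window before that start had 2 matches to the GC box, 51 and 7 bases before it, a GC content of 68.8% and no match to the SMAD or M-CAT letters.

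Mfap5 (ENSMUSG00000030116, GRCm38 chromosome 6, 122505845 to 122529290, plus strand), which encodes the related glycoprotein MAGP-2, measured 94.6 and 67.1 CPM in CTRL, 114.8 and 133.4 CPM under AngII, 78.4 and 53.7 CPM in AngII+2W and 25.4 and 63.4 CPM in AngII+3W. Its AngII libraries were above CTRL and its AngII+3W libraries under it. The log2 differences were 0.62 (SE 0.40, edgeR adjusted p = 0.445) and -0.87 (SE 0.40, edgeR adjusted p = 0.430). Per 100 units of Mfap5 per length, Mfap2 amounted to 3.11 and 5.41 in CTRL, 11.8 and 15.0 under AngII, 8.36 and 7.44 at AngII+2W and 11.3 and 8.09 in AngII+3W. All 6 libraries of the infused groups were above both CTRL libraries in this ratio, AngII+3W replicate 1 included.

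Mfap4 (ENSMUSG00000042436, GRCm38 chromosome 11, 61485431 to 61488900, plus strand), which encodes a fibrinogen-domain protein that binds elastin and fibrillin, measured 126.2 and 85.9 CPM in CTRL, 140.7 and 189.9 CPM under AngII, 114.3 and 70.4 CPM in AngII+2W and 20.4 and 76.2 CPM in AngII+3W. The AngII+3W libraries differed 3.73-fold from each other. The log2 difference from CTRL was 0.64 (SE 0.54, edgeR adjusted p = 0.577) in AngII and -1.13 (SE 0.55, edgeR adjusted p = 0.448) in AngII+3W, where it was -0.48 (SE 0.35, edgeR adjusted p = 0.707) without replicate 1.

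The fibulins connect elastin to microfibrils, basement membranes and cells. Fbln2 (ENSMUSG00000064080, GRCm38 chromosome 6, 91212455 to 91272540, plus strand) measured 103.8 and 91.3 CPM in CTRL and 139.8 and 259.5 CPM in AngII, without overlap (log2 difference 1.03, SE 0.35, unadjusted p = 0.0195, edgeR adjusted p = 0.148). In AngII+2W it was at 124.9 and 116.0 CPM and in AngII+3W at 65.0 and 124.3 CPM. Fbln1 (ENSMUSG00000006369, GRCm38 chromosome 15, 85205949 to 85286535, plus strand) overlapped CTRL in each of the 3 infused groups, with 72.2 and 42.4 CPM in CTRL and 69.9 and 126.2 CPM in AngII (log2 difference 0.78, SE 0.48, edgeR adjusted p = 0.429). Fbln5 (ENSMUSG00000021186, GRCm38 chromosome 12, 101746565 to 101819055, minus strand), which brings elastin and its cross-linking enzymes to microfibrils, measured 163.9 and 127.3 CPM in CTRL, 96.3 and 142.2 CPM under AngII, 182.2 and 121.1 CPM in AngII+2W and 42.2 and 115.1 CPM in AngII+3W. Its level in AngII overlapped CTRL (log2 difference -0.29, SE 0.44, edgeR adjusted p = 0.780). Emilin1 (ENSMUSG00000029163, GRCm38 chromosome 5, 30913402 to 30921277, plus strand), which encodes a glycoprotein at the boundary of elastin and microfibrils, measured 71.5 and 63.3 CPM in CTRL, 57.3 and 84.8 CPM under AngII, 60.8 and 48.1 CPM in AngII+2W and 25.9 and 53.4 CPM in AngII+3W. Its difference in AngII was 0.08 (SE 0.33, edgeR adjusted p = 0.930).

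The make-up of the group shifted within libraries. Of the summed CPM per kb of the 10 genes, Eln made up 67.8 and 76.0% in CTRL, 45.9 and 54.2% under AngII, 63.8 and 65.1% at AngII+2W and 46.1 and 52.8% in AngII+3W. The shares of AngII and AngII+3W overlapped each other and lay under those of CTRL and AngII+2W. Per 100 units of Eln per length, Fbn1 amounted to 8.29 and 5.19 in CTRL, 32.4 and 19.5 under AngII, 9.83 and 9.80 at AngII+2W and 24.8 and 15.1 in AngII+3W. Every infused library was above both CTRL libraries, in AngII with a high level of Fbn1 and in AngII+3W with a low level of Eln. These ratios and shares are descriptions and were not tested.

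**Figure D3:**
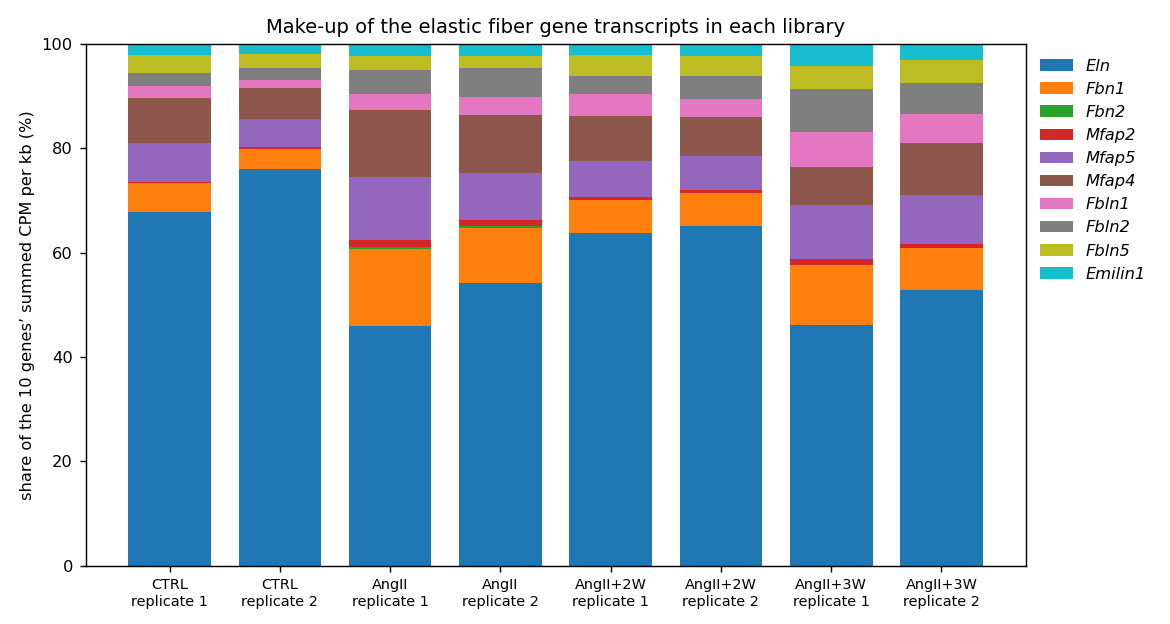
Share of each elastic fiber gene in the summed CPM per kb of the 10 genes (percent, stacked to the full height) in the 8 libraries. Eln (dark blue, at the base) takes 67.8 and 76.0% in CTRL and 45.9 to 54.2% in AngII and AngII+3W, and Fbn1 (orange) is widest in AngII replicate 1.

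At 2 weeks after the infusion, none of the 10 genes differed from CTRL in edgeR's quasi-likelihood test, at 0% of all genes tested. At an unadjusted p under 0.05 the count was also 0, against 10.7% of all genes tested, and DESeq2 called 0. The median log2 difference was 0.05, with values from -0.52 (Eln) to 0.68 (Mfap2). With 2 pools in each group this does not show that the levels were equal, and the standard errors of 0.33 to 0.54 would leave moderate changes undetected.

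At 3 weeks after the infusion, again none of the 10 passed edgeR's test, where 0.268% of all genes tested were called lower and 0.0175% higher. At an unadjusted p under 0.05 there was 1, Eln, against 12.5% of all genes tested. DESeq2 called 0, and edgeR's likelihood ratio test called Eln. In 5 of the 10 (Eln, Fbln5, Emilin1, Mfap5 and Mfap4) both AngII+3W libraries lay under both CTRL libraries, which held for 18.3% of all genes tested. The median log2 difference was -0.67, against 0.03 over all genes tested, and moved to -0.26 without AngII+3W replicate 1. With replicate 2 left out instead, the library that stands apart represented the group alone. Those 5 genes then lay between -3.06 (Eln) and -1.44 (Emilin1). Calls were then more frequent among the 10 and over all genes tested. Without replicate 1, Fbln5 stood at -0.34, Emilin1 at -0.34 and Mfap5 at -0.35, none of them called. Whether the muscle transcripts or the mitochondrial share of replicate 1 bear on these values was not tested.

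**Figure D4:**
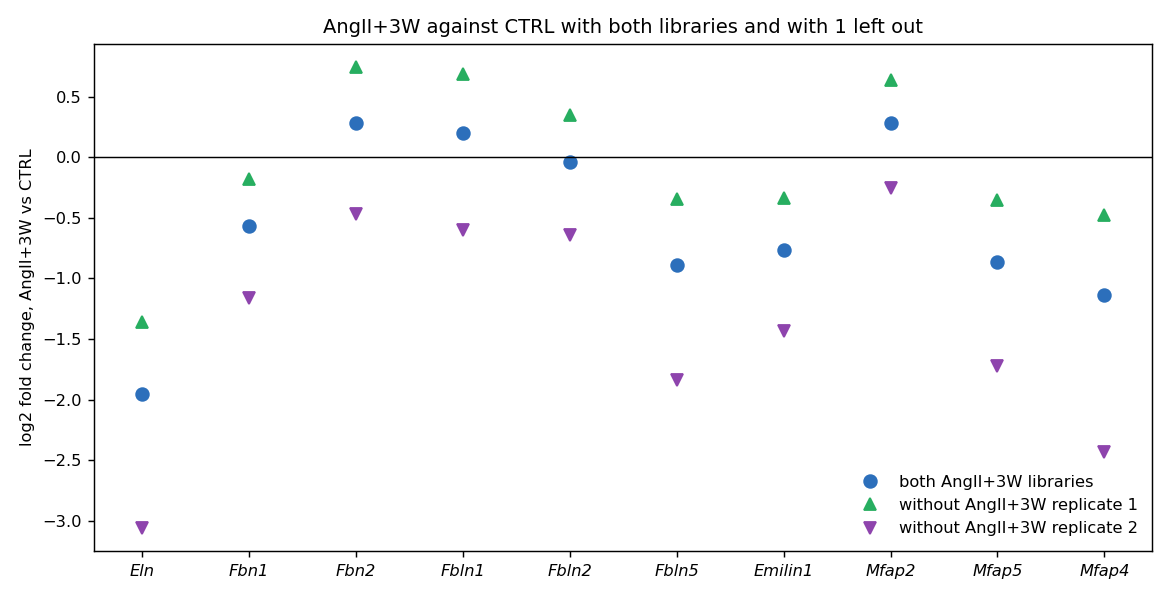
Log2 fold change of the 10 genes in AngII+3W against CTRL with both AngII+3W libraries (circles), without replicate 1 (upward triangles) and without replicate 2 (downward triangles). Every gene lies lowest when replicate 2 is left out, and Eln is the lowest of the 10 in each of the 3 fits.

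The AngII groups were also compared with each other, in comparisons that share the AngII libraries. In AngII+2W, 1 of the 10 was lower than in AngII, against 0.14% of all genes tested: Fbn2, by 13.5-fold (log2 difference -3.76, SE 0.37, edgeR adjusted p = 0.0290). Mfap2 was 3.17-fold lower and Fbn1 2.42-fold lower, which missed the threshold (edgeR adjusted p = 0.0974 and 0.143). The call of Fbn2 was lost, with its direction kept, when any 1 of the libraries of CTRL, AngII or AngII+2W was left out. Those fits called almost no gene over all tested. Without either library of AngII+3W more of the 10 were called, as were more of all genes tested. In AngII+3W, 3 of the 10 were lower than in AngII, against 1.32% of all genes tested: Fbn2 by 13.3-fold (edgeR adjusted p = 0.0145), Mfap2 by 4.19-fold (edgeR adjusted p = 0.0436) and Fbn1 by 3.67-fold (edgeR adjusted p = 0.0447). All 10 log2 differences were under 0, and 8 of 10 were lower at an unadjusted p under 0.05, against 10.4% of all genes tested. Without AngII+3W replicate 1, all 10 log2 differences were still under 0, with a median of -0.88 against -1.45 with it. In 8 of the 10 the libraries did not overlap, which held for 24.2% of all genes tested. Without AngII+3W replicate 1, only Fbn2 was called (log2 difference -3.25, edgeR adjusted p = 0.0255), while Fbn1 was at -1.48 (edgeR adjusted p = 0.104) and Mfap2 at -1.70 (edgeR adjusted p = 0.129). Calls among the 10 and over all genes tested both rose without AngII+3W replicate 2, and both fell without any other library. Over these fits Fbn2 ranged from -4.48 to -3.25, Fbn1 from -2.47 to -1.48 and Mfap2 from -2.60 to -1.70. Between AngII+3W and AngII+2W none of the 10 was called, at 0% of all genes tested, and DESeq2 also called 0. At an unadjusted p under 0.05 there was 1, Eln (log2 difference -1.44, SE 0.52), against 8.83% of all genes tested, and 0 without AngII+3W replicate 1.

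Genes of proteins that work with the elastic fiber moved in both directions. Of 26 assembly partners, 25 were tested, and in AngII 3 were higher and 1 lower than in CTRL, where 2.9% of all genes tested were higher and 2.2% lower. Loxl2, a lysyl oxidase family enzyme that cross-links elastin and collagen, rose from 47.4 ± 4.97 to 134 ± 37.2 CPM (mean ± SD, n = 2, log2 SE 0.25, edgeR adjusted p = 0.0198). Adamts17, a secreted metalloprotease linked to fibrillin microfibrils, rose by 1.80 (edgeR adjusted p = 0.0150), and Mmrn1, a multimerin of the emilin family, by 1.37 (edgeR adjusted p = 0.0228). Thsd4, which promotes fibrillin assembly, fell by 2.19 on the log2 scale, from 283 ± 70.9 to 62.1 ± 2.52 CPM (edgeR adjusted p = 0.0165). The median over the 25 was 0.26, against -0.01 over all genes tested. Without AngII+3W replicate 1, more partners were called in both directions, as were more of all genes tested. The median over the 26 partners tested was then 0.36.

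Of 8 proteases able to cleave elastin, 7 were tested and 3 were higher in AngII, against 2.9% of all genes tested. Ctsk, cathepsin K, rose from 7.44 ± 1.61 to 54.1 ± 14.5 CPM (log2 difference 2.86, edgeR adjusted p = 0.0078). Mmp2, a gelatinase, rose from 66.0 ± 17.3 to 393 ± 155 CPM (log2 difference 2.58, edgeR adjusted p = 0.0266), and Ctss, cathepsin S, from 15.9 ± 2.29 to 64.1 ± 34.5 CPM (log2 difference 2.01, edgeR adjusted p = 0.0273). Ctsl, cathepsin L, stood at 0.67 (edgeR adjusted p = 0.0554), and 4 proteases were called without AngII+3W replicate 1. Of 5 protease inhibitors, Timp1, an inhibitor of matrix metalloproteases, rose from 2.54 ± 0.131 to 31.1 ± 14.6 CPM (log2 difference 3.61, edgeR adjusted p = 0.0116), and the other 4 were not called. None of the 3 genes of the elastin receptor complex was called in edgeR's test. The nearest was Glb1, at 0.53 (unadjusted p = 0.0067, edgeR adjusted p = 0.0820), the only one of the 3 with an unadjusted p under 0.05.

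**Figure D5:**
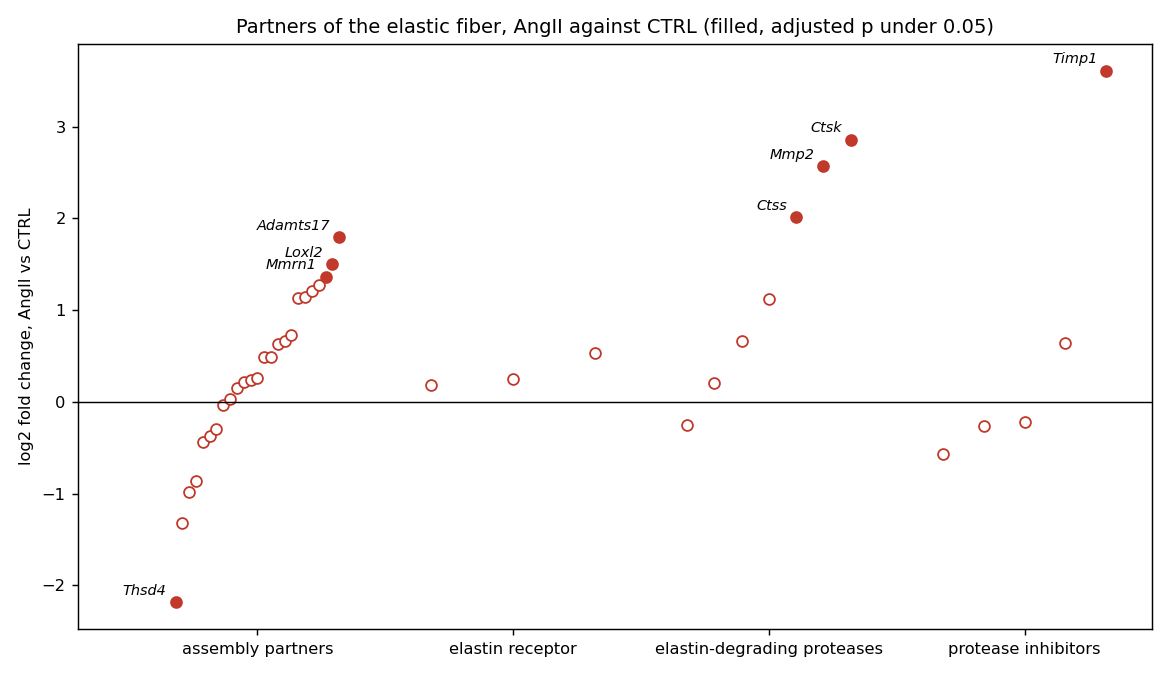
Log2 fold change between AngII and CTRL of the tested genes in 4 lists (columns, genes in ascending order within each list). Filled points have an edgeR adjusted p under 0.05 and are named: Adamts17, Loxl2, Mmrn1, Ctsk, Mmp2, Ctss and Timp1 above 0, and Thsd4 under 0.

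None of these lists had a gene called in edgeR's test against CTRL in AngII+2W or AngII+3W. Without AngII+3W replicate 1, an assembly partner was lower and a protease higher in AngII+2W, where more of all genes tested were also called. At an unadjusted p under 0.05, the assembly partners had 7 and 8 genes, the proteases 2 and 0, the inhibitors 0 and 2, and the receptor complex 0 and 0, where 10.7% and 12.5% of all genes tested had such a p. These counts became, without AngII+3W replicate 1, 11 and 5 for the assembly partners, 2 and 0 for the proteases, 1 and 1 for the inhibitors and 0 and 0 for the receptor complex. Against AngII, 1.32% of all genes tested were called lower in AngII+3W. In the lists, 3 assembly partners were lower: Loxl2, Adamts17 and Vcan, which encodes the proteoglycan versican. Vcan stood at -2.21 on the log2 scale (edgeR adjusted p = 0.0354). Of the other lists, 2 proteases (Ctss and Ctsk) and 1 inhibitor (Timp1) were lower. Without AngII+3W replicate 1, none of these 6 calls was left, and far fewer of all genes tested were called.

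Markers of some cell types moved beside these genes. Of 8 smooth muscle markers, 6 were lower in AngII than in CTRL, against 2.2% of all genes tested. The summed level of the 8 was 7969 to 10170 CPM in CTRL, 1898 to 2324 CPM under AngII, 3909 to 4270 CPM in AngII+2W and 2091 to 3624 CPM in AngII+3W. In AngII+3W, 4 of the 8 were called lower than in CTRL, against 0.268% of all genes tested. These calls were lost without AngII+3W replicate 1, in a fit that called almost no gene. The median log2 difference was -1.55 with and without that library. Of 8 fibroblast markers, 2 were higher in AngII, Lum and Col1a1, against 2.9% of all genes tested. All 8 had log2 differences above 0, with a median of 0.80, and the summed level, most of it Col1a1, was 1220 to 2050 CPM in CTRL, 7678 to 12480 CPM under AngII, 2576 to 3630 CPM in AngII+2W and 999.6 to 2736 CPM in AngII+3W. Of 7 macrophage markers, 4 were higher in AngII, against the same 2.9%, and their sum was 272 to 357 CPM in CTRL, 699 to 1155 CPM under AngII, 473 to 485 CPM in AngII+2W and 252 to 405 CPM in AngII+3W. In AngII+3W replicate 1 the sums of the smooth muscle, fibroblast and macrophage markers were each under those of replicate 2. No marker in these 3 lists was at 0 in any library. Without AngII+3W replicate 1 more markers of each list were called in AngII, as were more of all genes tested. The median log2 differences were then -2.165, 0.787 and 1.555, against -2.153, 0.799 and 1.565 with that library. Of 6 endothelial and 5 adipocyte markers, none was called in any infused group against CTRL, with median log2 differences in AngII of 0.11 and 0.007. The part of cell composition in the values of the elastic fiber genes was not tested.

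The genes whose profile over the 8 libraries was closest to that of Eln were Fstl3, Ccdc42 and Ccn5, with a root mean square difference of 0.364, 0.368 and 0.379 in centered log2 CPM, while Eln itself spanned 3.06. None of the 10 genes had another of the 10 as its nearest gene among the 17182. The closest link within the group was found after seeing the values: Mfap5 was the third nearest gene of Mfap4, at 0.251.

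Reads of some members can be shared with genes on the other strand. Exons overlap by 267 bases between Eln and Gm30003, by 2442 bases between Fbn1 and Gm9913, by 129 bases between Fbn2 and Gm26507 and by 89 bases between Mfap4 and Mapk7, and only Mapk7 was in the count table. Whether the counting used the strand was not given in the sources used here.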

How the data were processed

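RNA-sequencing of aortic tissue was analyzed from 8 libraries (2 mice pooled in each, 16 in all), grouped by their labels. The values deposited per gene are expected counts, which the authors estimated with Salmon in the ARMOR workflow from Ensembl cDNA on GRCm38 and summed over transcripts with tximeta. The values are whole numbers without normalization, and the table gives no transcript lengths. All columns of the table belong to the 8 libraries.

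Counts were rounded and tested in edgeR 4.0.16 (R 4.3.3) after filterByExpr and TMM normalization, with all 8 libraries in 1 quasi-likelihood fit with 4 residual degrees of freedom. Two-sided p-values were adjusted over 17182 genes in each of 6 comparisons, with a threshold of 0.05. CPM uses TMM-scaled library sizes. The floor of 3 counts is 0.140 to 0.165 CPM, under every value given for the 10 genes, and covers counting error only. CPM per kb divides by the length of the main transcript in GENCODE M21, and overlapping or near-identical transcripts were sought with BLAST 2.17.0. The pipeline was tested on simulated counts. Alternatives were other size factors, library totals, a count minimum of 10, no filter, DESeq2 1.42.0, the likelihood ratio test, the newer quasi-likelihood form, limma-voom (limma 3.58.1), fits of only the groups compared, a replicate block and each library left out. List counts and medians without AngII+3W replicate 1 were added after seeing the data.

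The 10 genes and the lists were chosen with earlier results of these data known. All 10 genes are named. In each partner list, up to 4 genes with the smallest p in AngII against CTRL are named, along with genes called in another comparison. The nearest genes are named for Eln and for a gene whose nearest is another of the 10. Sequence was taken from RefSeq for called genes, and only that of Mfap2 is shown.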

Additional observations from a re-analysis of the deposited data

Results flagged for a closer look

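For 3 elastic fiber genes the effect of angiotensin II at the end of the infusion differed from the effect after its withdrawal, by a direct test between the AngII groups. Fbn2 had a log2 fold change of -3.76 in AngII+2W and -3.73 in AngII+3W against AngII. Fbn1 had -1.88 and Mfap2 -2.07 in AngII+3W against AngII. The last 2 calls were lost in 7 of the 8 fits with 1 library left out, all but that without AngII+3W replicate 2, and also with library totals alone, with only the groups compared and with the replicate block. Groups of 2 libraries are too small for a check of single outlying libraries.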

How the results depend on the processing

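The count of elastic fiber genes called in AngII against CTRL was 2, and 4 with DESeq2, which added Fbn1 and Fbln2. Over all genes tested DESeq2 called 1592, against 877 in the main fit. The count of elastic fiber genes was 3, with Fbn1 added, with the likelihood ratio test (1711 of all genes tested called), no filter (1132) or only the groups compared (1149). It ranged from 0 to 3 with 1 library left out, and was 0 without CTRL replicate 1 or AngII replicate 2 and 1 without CTRL replicate 2. In AngII+2W against CTRL it stayed at 0 in every fit made. In AngII+3W against CTRL it was 1 with the likelihood ratio test and 0 to 5 with 1 library left out. In AngII+2W against AngII it was 3 with DESeq2, 3 with the likelihood ratio test, 4 with only the groups compared and 0 to 2 with 1 library left out. In AngII+3W against AngII it was 1 with library totals alone, 5 with DESeq2, 5 with the likelihood ratio test, 0 with only the groups compared and 0 to 9 with 1 library left out. In AngII+3W against AngII+2W it was 0 to 3 with 1 library left out.

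Same-numbered replicates come from different mice, and the main fit did not treat them as pairs. Their deviations correlated between -0.04 and 0.25 over the pairs of groups, highest between AngII and AngII+3W. Whether same-numbered libraries shared a step of handling was not tested. With the replicate block the count was 1 in AngII+3W against AngII and 2 in AngII against CTRL, and it was the same as without the block in the other comparisons.

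In the comparisons with CTRL and of AngII+3W with AngII, log2 differences kept their sign in each other fit with no library left out. With 1 library left out, those that turned ranged from -0.23 to 0.33 (Emilin1, AngII), from -0.22 to 0.35 (Fbn1), -0.27 to 0.32 (Fbln5) and -0.60 to 0.12 (Mfap4) in AngII+2W, and from -0.47 to 0.75 (Fbn2), -0.60 to 0.68 (Fbln1), -0.64 to 0.35 (Fbln2) and -0.25 to 0.64 (Mfap2) in AngII+3W, all against CTRL. The cause of these changes was not tested. Fbn2 in AngII stayed between 3.79 and 4.20 and Mfap2 between 2.04 and 2.60. Where 1 library is left in a group, it is taken to vary like the others. With 2 libraries in each group, only large changes could be called.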
